A study of Mus musculus with 23 samples.

Results

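The regions described here are stretches of the mouse genome where Upf1 CLIP alignments were found after cycloheximide and not without it. Distinct unspliced alignments of all 10 CLIP libraries (span of at most 60 nt) were merged on each strand when they lay 50 nt or less apart, leaving out mitochondrial and ribosomal sequence. A region was taken when it held at least 1 alignment in each of the 2 Upf1 cycloheximide libraries, at least 3 in both together and 0 in the 3 untreated Upf1 libraries. Of 203383 merged regions, 1410 met this rule. The Upf1 counts therefore chose the regions and are given as a description, with no test, while no limit was set on the IgG counts. IgG was not fully independent of the choice, since its alignments were merged into the regions and many of its molecules also occurred in Upf1 libraries.

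Upf1 is an RNA helicase that is essential for nonsense-mediated decay, the pathway that degrades mRNAs whose translation ends too early. It binds RNA broadly, and translating ribosomes are known to displace it from coding sequence, so that it accumulates in 3′ untranslated regions. Cycloheximide blocks translation elongation, holds ribosomes on the mRNA and also inhibits nonsense-mediated decay. In CLIP, ultraviolet light links proteins to the RNA they touch, the protein is precipitated with an antibody and the attached RNA fragments are sequenced. A non-specific IgG precipitate shows what is recovered without the specific antibody.

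The cells were v6.5 mouse embryonic stem cells grown with LIF on feeder cells, from which they were separated by pre-plating before irradiation at 254 nm with 400 mJ/cm2. Cycloheximide was given at 100 µg/ml for 2 h. The groups were rabbit anti-Upf1 with cycloheximide (libraries A1 and A2), rabbit anti-Upf1 without it (A1, A2 and I), rabbit IgG with cycloheximide (A1 and A2) and rabbit IgG without it (A1, A2 and I). The labels do not say whether these libraries came from separate cultures, so the spread between them may be technical. The other 13 of the 23 samples, mRNA-seq and ribosome footprints, were not analysed here.

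Depth was uneven. The unspliced distinct alignments numbered 29871 and 32437 in the Upf1 cycloheximide libraries, against 95296, 19901 and 87233 in the untreated Upf1 libraries. They numbered 6650 and 18439 in the IgG cycloheximide libraries, against 9604, 7840 and 45420 in the untreated IgG libraries. Reads were 38 nt long except in untreated Upf1 A1, untreated Upf1 I and untreated IgG I, where they were 34 nt. Short alignments, under 30 nt, made up 50.6% and 52.5% of the Upf1 cycloheximide libraries, against 15.1%, 31.6% and 12.2% of the untreated Upf1 libraries. In IgG they made up 53.1% and 48.7% with cycloheximide, against 10.1%, 39.6% and 12.0% without it, and untreated IgG A2, with the 39.6%, also had the highest untreated IgG rate in the selected regions. The part of depth and fragment length in the results was not tested.

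Libraries also shared molecules, here alignments with the same ends, strand and 2 adapter letters. In the selected regions, 34.3% of the molecules of Upf1 cycloheximide A1 were present in A2, and 37.4% of those of A2 were present in A1. Retained regions, which met the same cycloheximide limits but also had untreated Upf1 alignments, had shares of 24.4% and 25.2%. In all regions outside the selected ones, retained regions included, these shares were 11.5% and 10.2%. The rule itself asks for alignments in both cycloheximide libraries, which the other regions need not have. Of the molecules that IgG held in the selected regions, 76.2% in IgG cycloheximide A1 and 88.0% in IgG cycloheximide A2 also occurred in an Upf1 cycloheximide library. In retained regions these shares were 73.5% and 63.2%, and in all regions outside the selected ones 70.1% and 57.4%. Sharing was thus high throughout IgG cycloheximide A1, and higher in the selected regions mainly in A2. In untreated IgG A2 the share in the selected regions was 84.1%, with 82.6% in Upf1 cycloheximide A2 alone. Its share in an Upf1 cycloheximide library was 38.5% in all regions outside the selected ones. Whether a shared molecule was carried from one library to another or arose separately was not tested. The number of regions, IgG rates, share without IgG, region calls, 3′ shares around the selected regions and held-out rates are therefore also given without such molecules. Widths, shares by alignment number, classes beyond the limits, distances, windows and spliced counts are given with all molecules only. When shared molecules were left out and the rule was applied again, 397 of 195372 regions remained, of which 386 overlapped 1 of the 1410.

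Most of the regions were small and held few alignments. The median width was 38 nt (interquartile range 31 to 46), against 108 nt for the 1156 retained regions. A further 4652 regions, called lost regions, had 0 alignments in the Upf1 cycloheximide libraries. They held 3 or more over the untreated Upf1 libraries together, with alignments in at least 2 of these. Their median width was 120 nt. Width is not independent of the rule, which allows no untreated Upf1 alignment in the merged region. Exactly 3 alignments were held by 967 of the 1410 regions, 5 or more by 178 and 10 or more by 10, with a highest value of 19.

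The share of regions with no untreated Upf1 alignment fell as the number of cycloheximide alignments grew. It was 65.9% of 1468 regions with 3 alignments, 50.7% of 523 with 4 and 42.0% of those with 5. It was 26.1% of 234 regions with 6 to 9 alignments and 11.6% of 86 with 10 or more (Wilson 95% interval 6.44% to 20.1%). Over all 2566 regions that met the cycloheximide limits, the share was 54.9%.

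**Figure D1:**
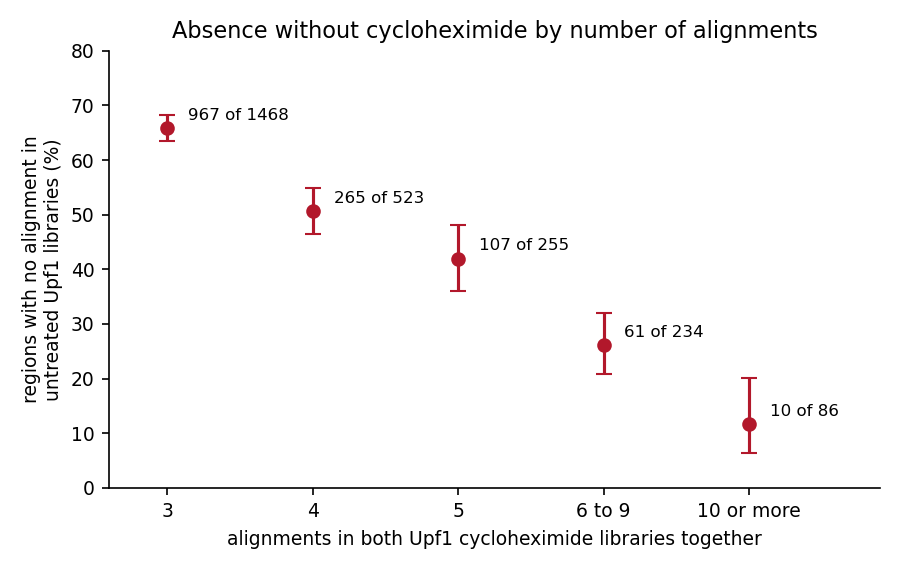
Percentage of regions without any alignment in the untreated Upf1 libraries (y axis) by the number of alignments in both Upf1 cycloheximide libraries together (x axis), for the 2566 regions that met the cycloheximide limits. Points are shares with Wilson 95% intervals, which cover counting error only, and the share was 65.9% at 3 alignments and 11.6% at 10 or more.

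Many regions lay just beyond the limits. There were 2741 regions with 1 alignment in each cycloheximide library and none without cycloheximide, 399 with enough cycloheximide alignments and 1 untreated alignment, and 433 with 3 or more alignments in 1 cycloheximide library alone. IgG alignments touched 54.5% of the selected regions with exactly 3 alignments, against 49.4%, 76.2% and 70.9% of these neighbouring classes in the same order.

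Agreement between the cycloheximide libraries rested largely on identical alignments. Of the 1410 regions, 1166 (82.7%) held an alignment with the same ends in both libraries, against 72.5% of retained regions, and 990 (70.2%) held an identical molecule. A molecule found in no other library was present in each of the cycloheximide libraries in 547 regions (38.8%), in only 1 of them in 811 and in neither in 52. All Upf1 cycloheximide alignments began at a single 5′ end in 575 regions. Alignments of 30 nt or more occurred in both cycloheximide libraries in 845 regions and in neither in 377.

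Recovery was measured as the alignments a library held in the regions per 100000 of its unspliced alignments. In the Upf1 libraries this rate was 8942 and 7294 with cycloheximide (2671 and 2366 alignments), against 0 of 202430 alignments without it, as the rule demands. The 0 was fixed by the choice, so no limit on the untreated rate is read from it. Retained regions had rates of 10686 and 9304 with cycloheximide, against 7804, 8266 and 5308 without it.

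IgG, on which the rule set no limit, recovered the same regions mainly after cycloheximide. The IgG rate was 7128 and 4626 with cycloheximide (474 and 853 alignments), against 135, 1505 and 154 without it (13, 118 and 70 alignments). Both cycloheximide libraries were above all 3 untreated ones. The exact Poisson 95% interval was 4321 to 4947 for the lowest cycloheximide value and 1246 to 1802 for the highest untreated value. These intervals cover counting error only, not the spread between libraries. Most molecules that these libraries held in the regions (88.0% and 84.1%) also occurred in an Upf1 cycloheximide library. The IgG cycloheximide libraries averaged 5877 ± 1769 (SD, n = 2), against 598 ± 785 (SD, n = 3) for the untreated IgG libraries, a ratio of 9.82. In retained regions the IgG means were 11232 ± 959 with cycloheximide and 7696 ± 1761 without it (SD, n = 2 and 3), a ratio of 1.46.

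The size of the IgG difference depended on single libraries. Without untreated IgG A2, the untreated library with the most molecules shared with Upf1 cycloheximide A2, the ratio was 40.6. When Upf1 cycloheximide A1 was left out of the choice of regions the ratio was 3.03, and the lower IgG cycloheximide rate (2055) then fell below the highest untreated one (2245). When A2 was left out of the choice it was 17.6. Either omission made the rule 3 or more alignments in the other library, which changed the regions chosen. Of 395 regions chosen without A1, 172 overlapped 1 of the 1410, and of 428 chosen without A2, 217 did. Without shared molecules the regions chosen again had IgG rates of 2344 and 1420 with cycloheximide (29 and 38 alignments), against 116, 248 and 69.0 without it (11, 4 and 29 alignments), a ratio of 13.1. The groups stayed apart, on far fewer alignments. The totals behind the rates also shrank unequally, from 6650 and 18439 unspliced alignments to 1237 and 2676 with cycloheximide. Without it they went from 9604, 7840 and 45420 to 9523, 1615 and 42040. The ratio of 13.1 is therefore not read as a larger difference than 9.82.

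**Figure D2:**
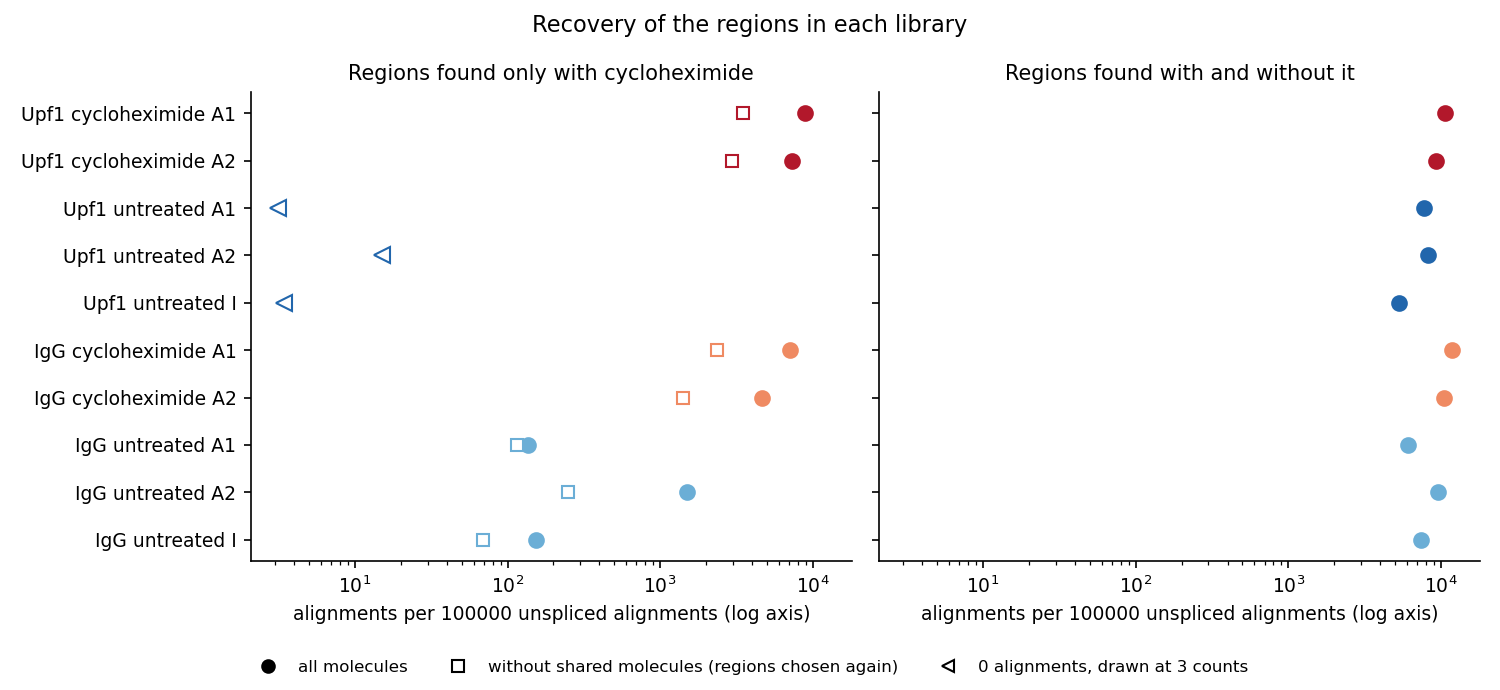
Alignments per 100000 unspliced alignments (x axis, log scale) in each of the 10 CLIP libraries (y axis), for the 1410 regions found only with cycloheximide (left) and the 1156 regions found with and without it (right). Filled circles use all molecules, open squares the 397 regions chosen again without shared molecules, and triangles mark 0 alignments drawn at 3 counts. On the left the IgG cycloheximide libraries lie above every untreated IgG library.

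Both antibodies recovered the regions after cycloheximide. The mean Upf1 rate was 1.38 times the mean IgG rate in the selected regions, where the Upf1 value was fixed by the choice, and 0.890 times in retained regions. Without shared molecules the ratio in the selected regions was 1.71. No IgG alignment was present in 553 of the 1410 regions (39.2%, Wilson 95% interval 36.7% to 41.8%), against 14.8% of retained regions. The interval covers counting error only. The share was 17.2% when Upf1 cycloheximide A1 was left out, which also changed the regions chosen. It was 64.5% when IgG cycloheximide A2 was left out. IgG with cycloheximide alone covered 674 regions, IgG without it alone covered 47 and both covered 136. Without shared molecules, 313 of 397 regions (78.8%) had no IgG alignment, at IgG cycloheximide depths of only 1237 and 2676 unspliced alignments.

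Few of the regions were deep enough for a test of single regions. The limma-voom fit covered the 2318 regions with 10 or more alignments summed over all libraries and at least 1 in 3 or more libraries, and 48 of the 1410 passed this filter, which they could do only through the cycloheximide and IgG libraries. In the IgG contrast of cycloheximide with untreated, 0 of the 48 were called at an adjusted p of 0.05, and 0% of all tested regions were called higher. With limma-voom p-values left unadjusted and the same threshold, 150 regions (6.47%) were higher and 46 (1.98%) lower. Among the 48 these counts were 35 higher and 0 lower, a description only, since the IgG cycloheximide alignments helped these regions pass the filter. Limma on log2 values with a trended prior also called 0 higher and 0 lower in IgG. In the Upf1 contrast, which the choice used, 47 of the 48 were called higher and 0 lower, against 3.45% and 0.992% of all tested regions, and nothing is read from this count. Over all regions 80 were called higher and 23 lower with TMM scaling, and 51 higher and 43 lower with library totals. The median log2 difference of all tested regions was -0.62 with TMM scaling and -0.92 with library totals. The count of 47 depended on how the libraries were scaled, as set out with the other alternatives in the closing part. The difference between the Upf1 and IgG contrasts was called in 0 regions, and without adjustment 45 were higher and 49 lower.

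The 10 regions with the most Upf1 cycloheximide alignments were all also found with IgG. Coordinates are those of build mm9. The highest, at chr17:45707647-45707707 on the minus strand, held 11 (A1) and 8 (A2) Upf1 alignments with cycloheximide, against 0 in each untreated Upf1 library. These Upf1 counts follow from the choice, so no fold difference is read from them. IgG held 3 and 7 alignments there with cycloheximide, against 0, 1 and 1 without it (log2 difference 2.54 ± 1.06 SE, limma-voom adjusted p = 0.365). Its nearest untreated Upf1 alignment on the same strand lay 132 nt away.

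A pair of the 10 lay close together on the minus strand of chromosome 1. The region at chr1:155325176-155325314 held 9 and 7 Upf1 cycloheximide alignments, and IgG held 4 and 4 with cycloheximide, against 0 in each untreated IgG library. The region at chr1:155326010-155326107 held 8 and 2 Upf1 cycloheximide alignments, and IgG held 1 and 1 with cycloheximide, against 0 in each untreated IgG library. This second region was the only one of the 10 that the rule no longer chose after shared molecules were left out, since Upf1 cycloheximide A2 then held 0 molecules of its own there.

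Several of the 10 were uneven between the cycloheximide libraries. The region at chr3:145311557-145311712 (minus) held 4 (A1) and 10 (A2) Upf1 alignments with cycloheximide, and that at chr3:102853549-102853625 (plus) held 4 and 8. At chr10:36718234-36718373 (plus) the values were 9 and 2, and at chr4:108686294-108686427 (plus) 1 and 9. Even values were seen at chrX:132424054-132424108 (plus), with 5 and 5, and at chr1:164640773-164640832 (minus), with 6 and 4. On chromosome 18 (minus), the remaining region held 5 and 6. Untreated IgG alignments were present in 7 of the 10, so these regions were not empty in every untreated library.

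**Figure D3:**
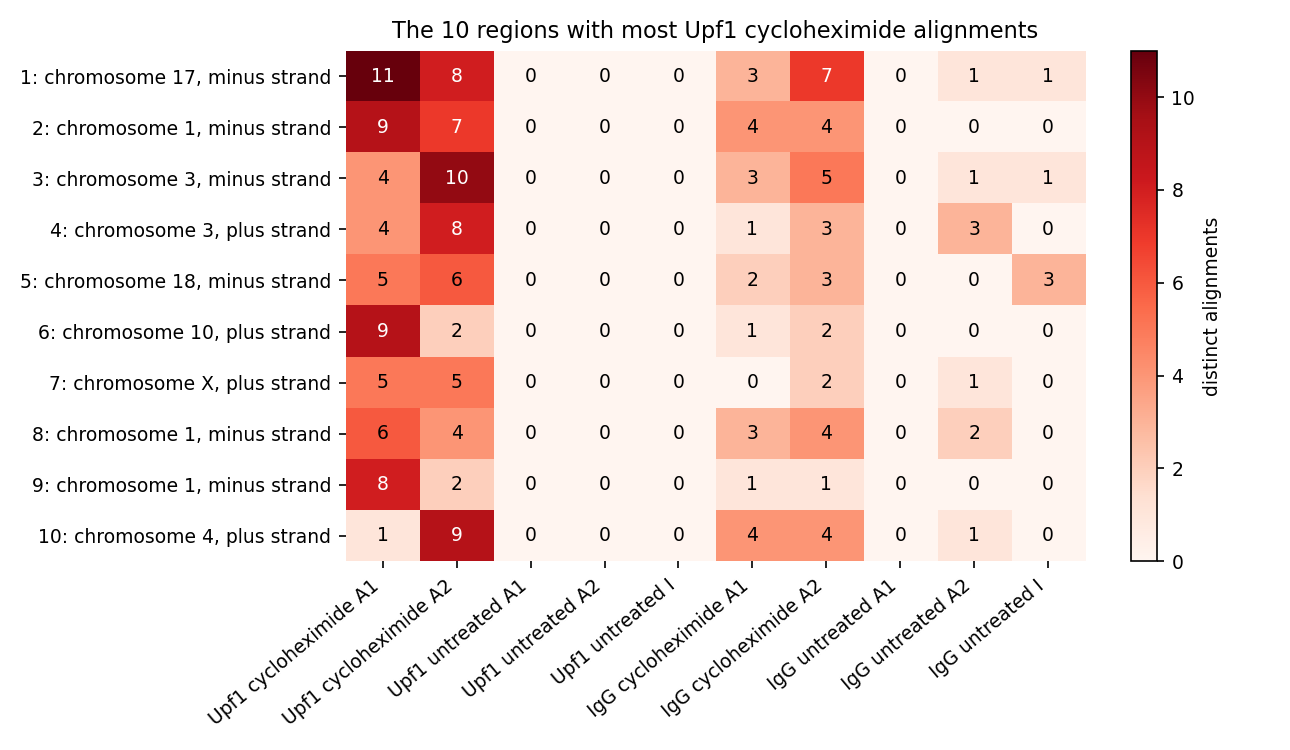
Distinct alignments in each of the 10 CLIP libraries (columns) for the 10 regions with the most Upf1 cycloheximide alignments (rows, ranked, with chromosome and strand); color and number give the same count. The untreated Upf1 columns are 0 by the choice of regions, and the IgG cycloheximide columns hold up to 7 alignments.

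Regions without any IgG alignment reached lower counts. The highest, at chr14:114708372-114708408 on the minus strand, held 4 (A1) and 5 (A2) Upf1 alignments with cycloheximide, against 0 in each untreated Upf1 library, and lay 126171 nt from the nearest untreated Upf1 alignment on its strand. The next, at chr8:124496858-124496948 (minus), held 3 and 5 alignments and lay 550 nt from one. The third, at chr10:84776733-84776773 (plus), held 3 and 3 alignments and lay 73605 nt from one. It tied with a region on the minus strand of chromosome 15, also at 3 and 3, and was placed before it by chromosome order. The 3 regions given by position were still chosen after shared molecules were left out.

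Most regions lay near untreated Upf1 coverage of the same strand, which was not particular to them. Outside the region itself but within 5000 nt, 83.3% had such an alignment, against 88.2% of retained and 95.7% of lost regions. The median distance to the nearest untreated Upf1 alignment was 1052 nt on the same strand and 22720 nt on the opposite strand. Such an alignment lay within 10000 nt of 1277 regions (90.6%) on the same strand and of 24.6% on the opposite strand. Of the 133 regions with none within 10000 nt, 65.4% had no IgG alignment, against 39.2% of all 1410.

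**Figure D4:**
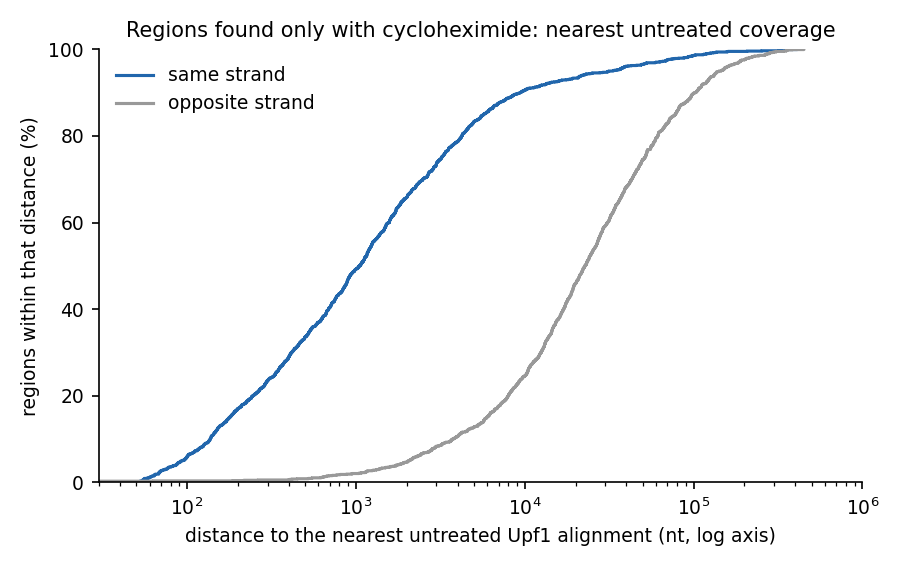
Cumulative percentage of the 1410 regions (y axis) by distance to the nearest untreated Upf1 alignment (x axis, nt, log scale) on the same strand (blue) and on the opposite strand (grey). On the same strand 90.6% of regions had one within 10000 nt, against 24.6% on the opposite strand.

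Neighbouring alignments lay more often on the 3′ side of the regions than on the 5′ side. Within 5000 nt on the same strand, the share on the 3′ side was 54.9% and 56.7% in the Upf1 cycloheximide libraries, against 72.6%, 64.6% and 65.7% in the untreated Upf1 libraries. It was 58.9% and 57.8% in the IgG cycloheximide libraries, against 63.4%, 62.1% and 68.9% in the untreated IgG libraries. For both antibodies the cycloheximide libraries lay below every untreated one. Without shared molecules this held for Upf1 but not for IgG, where the shares were 61.2% and 62.5% with cycloheximide, against 67.0% in untreated A1 and I, while untreated A2 was below both cycloheximide libraries.

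The lower 3′ share with cycloheximide was also seen around the other regions. The means for Upf1 were 47.5% ± 0.0777 with cycloheximide and 55.2% ± 2.71 without it around retained regions, and 39.3% ± 0.750 with and 47.4% ± 1.53 without it around lost regions (SD, n = 2 and 3). Around the selected regions they were 55.8% ± 1.29 with cycloheximide and 67.6% ± 4.39 without it. In every group the selected regions had the highest mean 3′ share of these classes. No test was run on these shares, since exact permutation of 2 against 3 libraries could not reach 0.05.

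**Figure D5:**
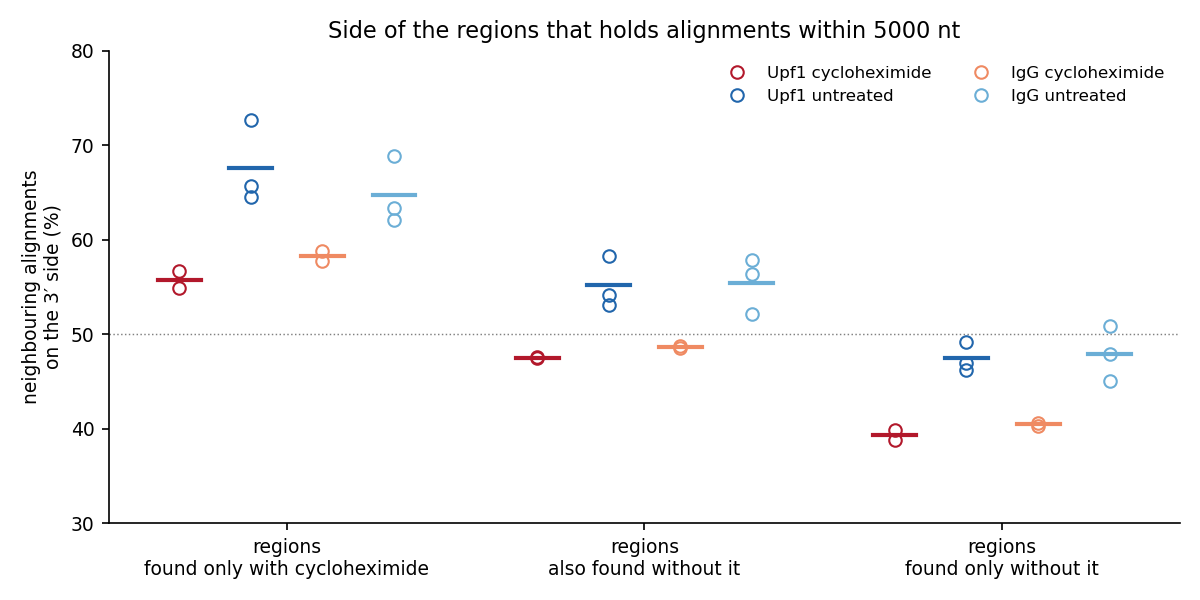
Percentage of alignments within 5000 nt on the same strand that lay on the 3′ side (y axis) around the 1410 regions found only with cycloheximide, the 1156 also found without it and the 4652 found only without it (x axis). Circles are libraries and bars are group means; the untreated Upf1 mean was 67.6% around the first class and 47.4% around the last.

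Clusters of the regions were rare. Of the windows of 10000 nt on 1 strand that held any, 1266 held 1 region, 61 held 2, 6 held 3 and 1 held 4. The window with 4, chr11:50190001-50200000 (plus), held 16 and 17 Upf1 alignments in all with cycloheximide, against 7, 3 and 22 without it. IgG held 3 and 11 alignments there with cycloheximide, against 0, 2 and 13 without it. In the window chr3:102850001-102860000 (plus), with 3 regions, Upf1 held 11 and 16 alignments with cycloheximide, against 1, 0 and 6 without it, and IgG held 5 and 10 with cycloheximide, against 0, 4 and 2 without it. In the window chr11:60600001-60610000 (minus), also with 3, Upf1 held 11 and 8 with cycloheximide, against 2, 1 and 5 without it, and IgG held 9 and 8 with cycloheximide, against 0, 1 and 1 without it. Rates per 100000 alignments of each group follow in the same order of windows. IgG reached 55.8, 59.8 and 67.8 with cycloheximide, against 23.9, 9.54 and 3.18 without it. Upf1 reached 53.0, 43.3 and 30.5 with it, against 15.8, 3.46 and 3.95 without it. Of the 33, 27 and 19 Upf1 cycloheximide alignments, 20, 19 and 16 lay in selected regions, where untreated Upf1 was 0 by the choice. The Upf1 differences therefore follow in part from the choice, and nothing is read from them. Each window also held untreated Upf1 alignments outside the selected regions.

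Spliced alignments were not used by the rule, but they came from the same libraries that chose the regions. Their counts are therefore a description. They touched the regions 60 and 47 times in the Upf1 cycloheximide libraries (of 1606 and 1473 spliced alignments), against 12, 2 and 11 times in the untreated Upf1 libraries (of 1130, 240 and 803). In IgG they touched them 12 and 24 times with cycloheximide (of 417 and 862 spliced alignments). Without it they did so 0, 3 and 7 times (of 87, 150 and 584). Per 100000 spliced alignments the Upf1 rates were 3736 and 3191 with cycloheximide, against 1062, 833 and 1370 without it. The IgG rates were 2878 and 2784 with cycloheximide, against 0, 2000 and 1199 without it. In retained regions the Upf1 rates were 3113 and 3734 with cycloheximide, against 3628, 3750 and 3985 without it. In lost regions they were 1059 and 1018 with it, against 2655, 3333 and 2989 without it. The direction thus went with how the selected and lost regions were chosen, and nothing further is read from it. Untreated Upf1 spliced alignments touched 22 of the 1410 regions, which were therefore not free of untreated Upf1 signal of every kind.

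The contrast was also described in libraries left out of a changed choice, without a test. They are not independent of it, since the cycloheximide libraries share molecules. Untreated A2 was the only untreated library left for comparison. Regions were chosen by 3 or more alignments in 1 cycloheximide library and 0 in untreated Upf1 A1 and I. The 467 regions chosen in cycloheximide A1 had a rate of 1406 in cycloheximide A2, against 322 in untreated A2, a ratio of 4.37. The 447 regions chosen in cycloheximide A2 had a rate of 1332 in cycloheximide A1, against 402 in untreated A2, a ratio of 3.31. Without shared molecules the ratios were 3.11 and 2.76. In these held-out libraries 52.7% and 43.8% of the regions held an alignment, against 8.57% and 11.6% in untreated A2. Without shared molecules these shares were 29.6% and 28.5%, against 8.33% and 8.5%. None of these shares is scaled for depth, which was lower in untreated A2.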

How the data were processed

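The deposited CLIP files hold 1 aligned read per line on build mm9. Bowtie 0.12.6, TopHat 1.4.0 and Cufflinks 1.3.0 are listed, without a role, per the submitters' processing notes. The score column the authors deposited is the same in all 833047 lines and was not used. The name column holds 2 adapter letters, which with the ends and strand defined a molecule. Lines at the same position were counted once per library. These tallies are not a deposited count table, so region tests used limma-voom 3.58.1 (R 4.3.3) with TMM scaling, 4 groups and Benjamini-Hochberg adjustment over all 2318 regions, and were tested on simulated data. Other steps used Python 3.11.15. The TMM factors were first taken over filtered regions but multiplied by totals over all regions. This mismatch was corrected after the calls had been seen, and 5 versions of scaling and table were run in all. Named regions were the 10 with most Upf1 cycloheximide alignments, any called in IgG, 3 windows with most regions and 3 regions without IgG. Regions and lists were chosen with earlier results of these data known. Genes, sequences and cell type markers were not analysed here.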

Additional observations from a re-analysis of the deposited data

How the results depend on the processing

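The 1410 regions became 397 without molecules found in more than 1 library, 2149 when distinct molecules were counted, 178 at 5 or more alignments and 736 with alignments of 30 nt or more, and ranged between 395 and 1673 when 1 library was left out. The log2 ratio of IgG rates, cycloheximide over untreated, was 3.30 and kept its direction in every alternative run, between 1.60 and 5.34 with 1 library left out. The share without IgG, 39.2%, was 78.8% without shared molecules, 35.3% for distinct molecules, 17.4% at 5 or more alignments, 36.0% with 38 nt reads only and 43.6% with alignments of 30 nt or more, and ranged from 17.2% to 64.5% with 1 library left out. The lowest value of each of these ranges came without Upf1 cycloheximide A1, where 172 of 395 regions overlapped 1 of the 1410. IgG calls among the selected regions stayed at 0 in every alternative run, the replicate block included. Over all regions IgG had 7 higher calls at 30 or more alignments (392 tested) and 1 lower call in each version with chrM and chrRibo in the table.

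The 47 Upf1 calls among the selected regions depended on the scaling. They were 0 with the scaling as first written, whose totals did not match, and 11 with that scaling and chrM and chrRibo in the table. They were 48 with factors and totals both over filtered regions and 47 with matched totals and chrM and chrRibo in the table. These versions were added after seeing the data. The first-written scaling called 0 regions higher and 1 lower over all 2318, against 80 and 23 with matched totals. The calls were 0 with no filter, 0 with every line counted, 1 at 30 or more alignments (1 region tested) and 5 without shared molecules (5 tested). With 1 library left out they ranged from 0 to 48, and were 0 without Upf1 untreated A2, without Upf1 cycloheximide A1 and without Upf1 cycloheximide A2. The cause was not tested. With the replicate block (labels A1, A2 and I) they were 46. Same-labelled libraries deviated together in some pairs only (correlation 0.42 between untreated Upf1 and IgG A2, -0.18 for A1), so the labels were not taken as pairs. The IgG cycloheximide depth of 6650 and 18439 unspliced alignments limits what the absence of IgG from a single region can show.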
